A study of Rhodotorula toruloides with 18 samples.

Results

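The comparison described here is the transcriptional response of a cbr1 deletion strain of Rhodotorula toruloides to cellobiose, set against carbon starvation. It rests on 6 of the 18 libraries of the series, 3 from the deletion strain on cellobiose and 3 from the same strain in medium with no carbon source, chosen by their labels. R. toruloides is an oil-storing basidiomycete yeast, and the series title concerns a transcription factor in carbon source use and carbon catabolite repression. The deletion strain has the genotype yku70::HygR cbr1::NatR in strain IFO0880, so a hygromycin marker replaces yku70 and a nourseothricin marker replaces cbr1. The wild type of the series is yku70::HygR, so every strain lacks yku70, a gene for end joining of broken DNA whose loss is used to favour targeted gene replacement. Cells grown overnight in rich glucose medium at 28 °C were washed and held for 8 h at pH 6.2 in constant light, shaken at 250 rpm, in yeast nitrogen base with 1% cellobiose, 1% succinate or no carbon. Whether the deletion strain is a single clone is not given in the sources used here.

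Cellobiose is a disaccharide of glucose released from cellulose, and fungi use it by taking it up or by cleaving it with beta-glucosidases. Carbon catabolite repression is the shutdown of genes for poorer carbon sources while a preferred sugar such as glucose is present. Starved cells generally show the reverse state, with genes for alternative substrates and reserve breakdown active. Genes are named here by identifier only, since 0 of the 8484 identifiers matched the 8171 genes of the RefSeq table used here, which describes strain NP11. For the same reason the cbr1 transcript could not be looked up as a check of the labels.

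The deletion libraries separated by medium. Across the 7938 tested genes, Pearson's r of log2(TPM + 1) ran from 0.978 to 0.991 between cellobiose replicates and from 0.957 to 0.985 between no-carbon replicates. It ran from 0.846 to 0.888 between a cellobiose and a no-carbon library. Genes are not independent replicates, so these values only describe the libraries. The first principal component of the 6 libraries held 77.6% of the variance and divided the media. The next held 14.99% and set replicate 3 of each medium, with loadings of -0.36 on cellobiose and -0.73 without carbon, apart from replicates 1 and 2, which had loadings of 0.15 and 0.27 on cellobiose and 0.44 and 0.22 without carbon. The median TPM of a library was 29.5, 31.6 and 25.2 on cellobiose, against 38.5, 37.2 and 28.2 without carbon. TPM (abundance per transcript, summing to a fixed total for every library) is a share of that total, so a change in total RNA per cell cannot be seen in it, and the number of reads behind it is unknown.

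On cellobiose, 367 genes rose and 1003 fell in the deletion strain relative to no carbon. A gene was called when limma gave a Benjamini-Hochberg adjusted p under 0.05 and the log2(TPM + 1) difference was at least 1 in size. In the main fit, each SE and p rests on a spread pooled for each gene over all 18 libraries. The 1370 called genes were 17.3% of those tested, with 4.62% higher and 12.6% lower. The median difference over all tested genes was -0.21, so that the typical gene itself lay lower on cellobiose in TPM. The size of the excess of lower genes depended on the scaling. After median-ratio scaling, which brings the median of all genes to -0.0021, 512 genes rose and 732 fell. Quantile normalization gave 700 rises and 708 falls. The replicates of the media did not overlap for 3701 genes (46.6%), with all cellobiose libraries above all starved ones for 1129 (14.2%) and below them for 2572 (32.4%).

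In unscaled TPM the falls reached further than the rises, which was not counted under the other scalings. Of the 1370, 330 fell by at least 2 on the log2 scale and 105 rose by that much. At a log2 difference of at least 4 there were 62 lower and 6 higher genes, and at 5 or more 18 lower genes and 1 higher gene.

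**Figure D1:**
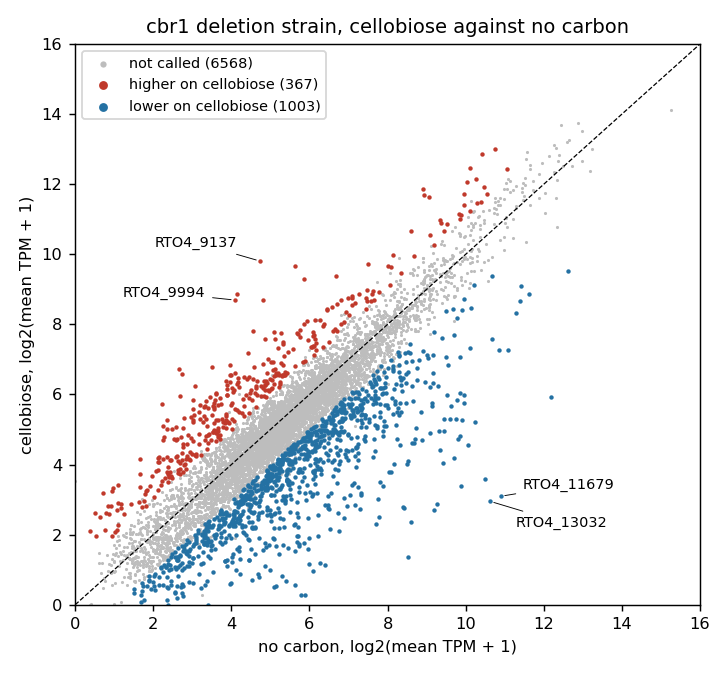
Mean TPM of each of the 7938 tested genes in the cbr1 deletion strain, on cellobiose (vertical axis) against no carbon (horizontal axis), both as log2(mean TPM + 1) over 3 libraries. Red points are the 367 genes called higher on cellobiose, blue points the 1003 called lower, grey points the others, and the dashed line marks equal values; the blue cloud reaches further from the line than the red.

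The largest rises brought genes of modest level in starved cells to a high level on cellobiose. RTO4_9137 stood at 831, 1233 and 623 TPM in the deletion strain on cellobiose, against 31.0, 26.9 and 18.6 TPM in the deletion strain without carbon. All 3 cellobiose libraries lay far above the highest starved one. The log2 difference was 5.06 ± 0.80 (SE from the pooled spread, n = 3 each; limma adjusted p = 1.11e-04). With only the libraries of this comparison fitted, the SE was 0.26. RTO4_9994 stood at 295, 348 and 597 TPM on cellobiose, against 11.8, 27.8 and 8.29 TPM without carbon. Its log2 difference was 4.71 ± 0.60 (SE, n = 3 each; limma adjusted p = 1.35e-05). Genes were named for the response only if the media did not overlap. RTO4_9137 and RTO4_9994 are also extremes of this comparison, so their differences can be raised in size by that choice.

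RTO4_9137 and RTO4_9994 were also high in the wild type on cellobiose and differed in their levels on succinate. RTO4_9137 held 2249, 2114 and 945 TPM in the wild type on cellobiose and 22.5, 18.5 and 5.32 TPM in the wild type without carbon. In the deletion strain on succinate it held 215, 63.8 and 4.98 TPM, a range that spans its starved level. RTO4_9994 held 304, 82.3 and 79.6 TPM in the deletion strain on succinate, all above its starved level there. The difference between succinate and no carbon in the deletion strain was 0.75 ± 0.80 for RTO4_9137 (limma adjusted p = 0.497) and 3.07 ± 0.60 for RTO4_9994 (limma adjusted p = 5.43e-04), each on the log2 scale with its SE. The contrasts of cellobiose and of succinate share the starved libraries.

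The strongest falls took abundant starvation transcripts down to a few TPM. RTO4_11679 stood at 6.69, 6.74 and 9.26 TPM in the deletion strain on cellobiose, against 2339, 1281 and 2150 TPM in the deletion strain without carbon. Its log2 difference was -7.78 ± 0.96 (SE, n = 3 each; limma adjusted p = 9.44e-06). RTO4_13032 stood at 5.72, 8.94 and 5.52 TPM on cellobiose, against 762, 1449 and 2545 TPM without carbon. Its log2 difference was -7.54 ± 1.03 (SE, n = 3 each; limma adjusted p = 2.50e-05). Neither gene had a cellobiose library within the range of its starved ones, which the naming rule required. Both were picked as extremes, so the size of their falls can be raised by that choice.

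On succinate, replicate 1 of the deletion strain stood apart for RTO4_11679 and RTO4_13032. RTO4_11679 was at 9.26 TPM in that library, and at 823 and 194 TPM in replicates 2 and 3. RTO4_13032 was at 6.07 TPM in that library, and at 89.7 and 79.5 TPM in replicates 2 and 3. The level of replicate 1 was thus close to that on cellobiose for both genes. RTO4_11679 fell to 2.38, 3.01 and 2.02 TPM in the wild type on cellobiose, against 2241, 1607 and 808 TPM in the wild type without carbon. RTO4_13032 likewise fell to 1.33, 3.45 and 4.27 TPM in the wild type on cellobiose, against 1066, 2721 and 6119 TPM in the wild type without carbon. These wild type falls were called (log2 differences of -8.69 ± 0.96 and -9.43 ± 1.03, SE; limma adjusted p = 8.22e-07 and 6.98e-07).

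**Figure D2:**
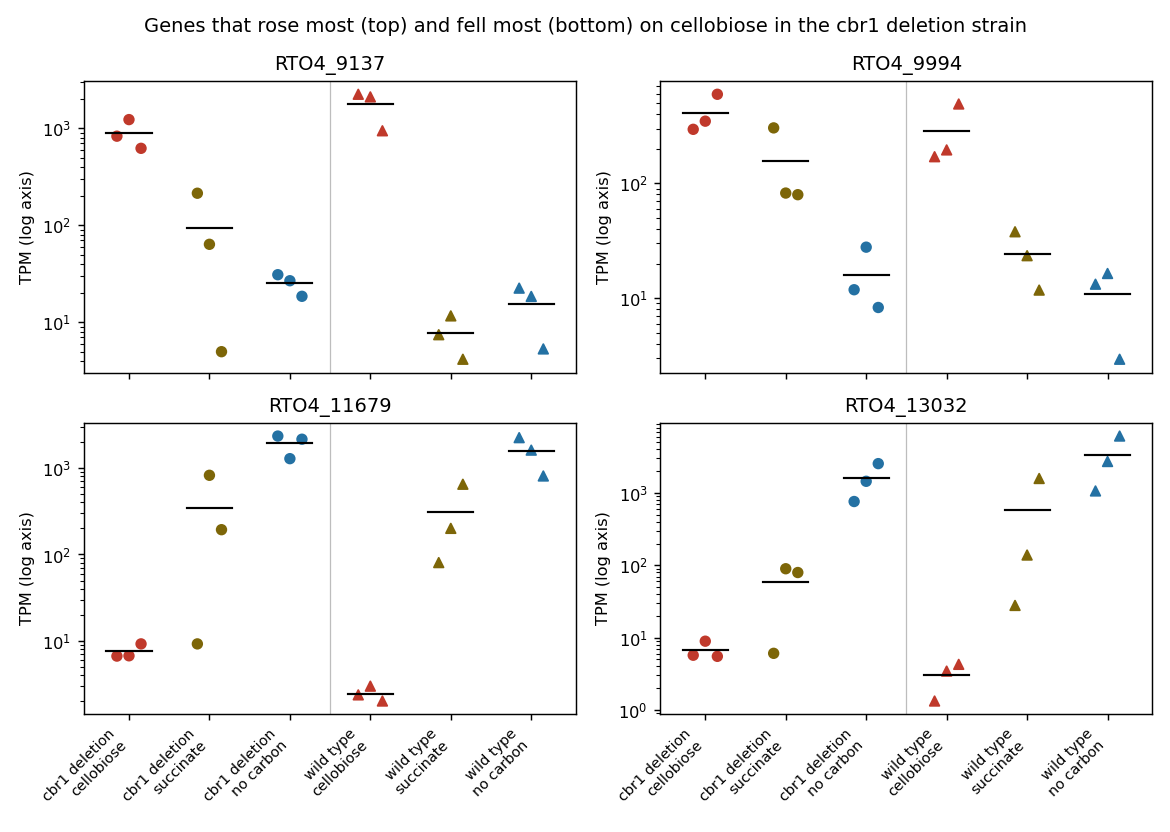
TPM of the 4 genes that rose or fell most on cellobiose in the cbr1 deletion strain, in each of the 18 libraries (log axis; circles, deletion strain; triangles, wild type; red, cellobiose; ochre, succinate; blue, no carbon; lines, group means). RTO4_9137 and RTO4_9994 have their highest group means on cellobiose in each strain, and RTO4_11679 and RTO4_13032 lie lowest there, apart from deletion replicate 1 on succinate, which is near the cellobiose level for RTO4_11679 and RTO4_13032.

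Direction was counted by class of gene level. The level was averaged over all libraries of the series, which include those compared and hold more libraries with a carbon source than without. A gene high on carbon thus tends to be placed in a higher class than a starvation gene, and the counts by class are a description. Among the 161 genes whose level averaged 1000 TPM or more across the series, 27 rose (16.8%) and 6 fell (3.73%) on cellobiose in the deletion strain, with a median log2 difference of 0.62. Among the 1299 genes between 1 and 10 TPM, 52 rose (4%) and 253 fell (19.5%), with a median of -0.38. The 5263 genes between 10 and 100 TPM had 225 higher and 572 lower, and the 1215 genes between 100 and 1000 TPM had 63 higher and 172 lower. The classes were kept as cut on unscaled TPM for the other scalings. The most abundant class had more rises than falls after median-ratio scaling (19 and 5) and after quantile normalization (32 and 9). The excess of falls in the lower classes depended on the scaling. In the class of 1 to 10 TPM, median-ratio scaling gave 69 rises and 182 falls, and quantile normalization 133 and 129. In the class of 10 to 100 TPM these counts were 321 and 410, and 415 and 419. In the class of 100 to 1000 TPM they were 103 and 135, and 120 and 151.

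The genes called in the deletion strain took different shares of the library in each medium. Together the 367 raised genes made up 11.7%, 11.2% and 14.4% of the TPM in the deletion strain on cellobiose, against 2.78%, 3.52% and 4.88% in the deletion strain without carbon. The 1003 lowered genes made up 2.84%, 3.02% and 2.70% on cellobiose, against 14.4%, 12.7% and 16.6% without carbon. These shares come from the libraries that chose the genes and are a description. Wild type libraries entered the choice of these genes only through the pooled spread and the filter on mean level. In the wild type the 367 genes held 16.1%, 15.9% and 11.8% on cellobiose, against 3.84%, 5.75% and 8.34% without carbon. The 1003 genes held 3.36%, 3.27% and 3.05% in the wild type on cellobiose, against 14.5%, 15.5% and 17.7% without carbon. On succinate in the deletion strain, the 367 genes held 15.03%, 12.3% and 13.2% and the 1003 genes 2.91%, 6.58% and 4.79%. For the 367 genes and for the 1003 genes, no wild type library with a carbon source overlapped a starved wild type library. In the deletion strain the choice of the genes itself separates cellobiose from no carbon. The succinate libraries of that strain also lay apart from the starved ones, but those starved libraries helped to choose the genes.

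**Figure D3:**
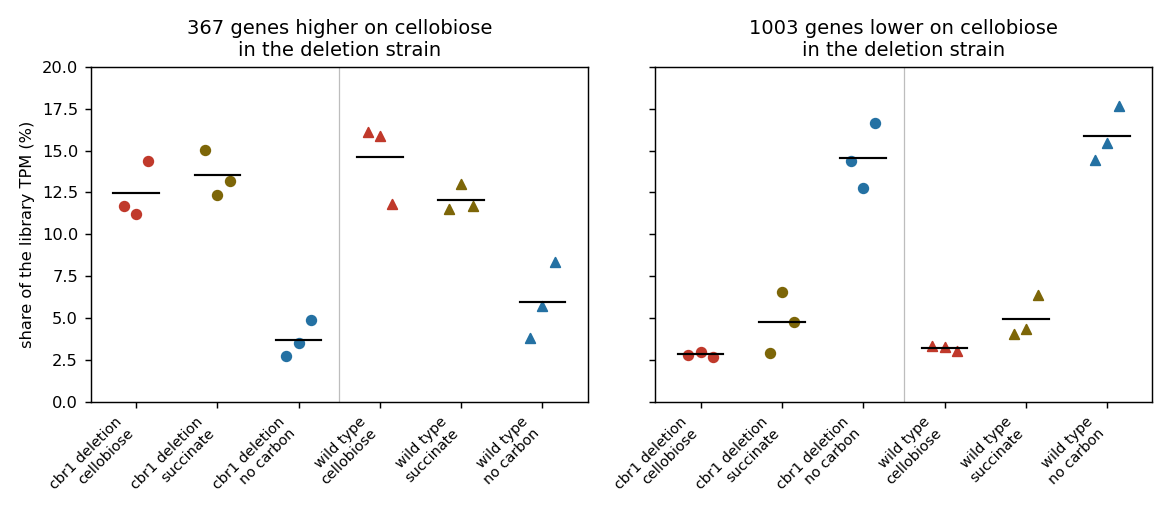
Share of each library's TPM (%) held by the 367 genes called higher (left) and the 1003 called lower (right) on cellobiose in the cbr1 deletion strain, for all 18 libraries (circles, deletion strain; triangles, wild type; lines, group means). The raised genes hold 2.78% to 8.34% in starved libraries and more in every library with cellobiose or succinate, and the lowered genes show the opposite order. The genes were chosen on the deletion libraries with cellobiose and without carbon, so the separation of those is a description.

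Some genes were almost undetected on cellobiose, and none was so without carbon and raised on cellobiose at the limits used. In the deletion strain 13 genes were under 1 TPM in all 3 cellobiose libraries and at 5 TPM or more in all 3 starved libraries, and 0 genes showed the converse. Their starved means in the deletion strain had a median of 22.1 TPM, and the highest single starved value was 99.4 TPM. On succinate the deletion strain averaged between 0.334 and 12.8 TPM for these genes, with a median of 1.06 TPM. All 13 were called lower on cellobiose in the wild type, where 22% of all tested genes were, with means of at most 5.59 TPM on cellobiose, against 4.17 to 84.7 TPM without carbon. By limma's interaction term the response differed between strains for 0 of the 13, with an unadjusted p under 0.05 for 1. Since 3.33% of all tested genes were called, a count of 0 among 13 does not set these genes apart.

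The most abundant transcript of the deletion strain, RTO4_11385, was the same in each medium and was looked at after its values were seen. It held 19822, 19100 and 13879 TPM in the deletion strain on cellobiose, against 28015, 31362 and 57573 TPM in the deletion strain without carbon. The libraries did not overlap, but the log2 difference of -1.09 ± 0.53 (SE, n = 3 each) did not pass the test (limma adjusted p = 0.165). It fell to 3573, 3752 and 2851 TPM in the wild type on cellobiose, against 29598, 24809 and 49199 TPM in the wild type without carbon, a log2 difference of -3.29 ± 0.53 (SE, n = 3 each; limma adjusted p = 5.13e-05). The difference between these responses was 2.21 ± 0.74 (SE; limma adjusted p = 0.101). Of the 10 most abundant genes of each medium in the deletion strain, 6 were shared. In each list 1 of the 10 was called, against 17.3% of all tested genes.

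The response of the deletion strain was then set beside that of the wild type, measured in separate libraries. Among the 1370 calls in the deletion strain, 972 genes (70.9%) were called in the same direction in the wild type, 5 in the opposite direction and 393 not at all. These 972 were 39.8% of the 2445 genes called in the wild type, which were 30.8% of those tested. Of the 393 genes not called in the wild type, 36 (9.16%) differed in response between strains, and of the 1468 called in the wild type and not in the deletion strain, 179 (12.2%) did, against 3.33% of all tested genes. The lists were chosen on responses that are terms of that difference, so these shares are a description. The number of genes with a different response, 264, itself ran from 2 to 2033 over the alternatives tried. A call in 1 strain and not in the other is thus no sign by itself that the strains differ.

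Most genes that responded to cellobiose in the wild type had a difference of the same sign in the deletion strain. Of the 697 genes raised in the wild type (8.78% of those tested), 516 (74.0%) had a positive difference in the deletion strain and 211 (30.3%) were called higher, against 4.62% of all tested genes. Their deletion values had a median log2 difference of 0.46 and a middle range (quartiles) of -0.031 to 1.32, beside a wild type median of 1.35. Of the 1748 genes lowered there, 1628 (93.1%) had a negative difference in the deletion strain and 761 (43.5%) were called lower, against 12.6% of all tested genes. Their deletion median was -0.97, with quartiles of -1.63 and -0.50, beside a wild type median of -1.73. The wild type medians come from the libraries that chose these genes and can be raised in size by that choice. Read the other way, the 367 genes raised in the deletion strain had a median of 1.58 there and 1.17 in the wild type, and the 1003 lowered genes had -1.63 and -1.83. The shift of all genes in TPM, -0.21 in the deletion strain and -0.13 in the wild type, enters all of these medians and the shares of the same sign. The share of each sign over all tested genes is not given here. For the other scalings the wild type lists chosen on unscaled TPM were kept. After median-ratio scaling the shares of the same sign were 84.6% for the raised and 89.1% for the lowered list, with deletion medians of 0.66 and -0.76, and after quantile normalization they were 87.2% and 83.9%. Which list kept its sign more often thus depended on the scaling.

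By share of the library, the genes lowered in the wild type stayed more abundant on cellobiose in the deletion strain. The 1748 genes made up 18.1%, 17.3% and 15.7% of the TPM in the deletion strain on cellobiose, against 31.3%, 30.7% and 33.8% in the deletion strain without carbon. The same genes made up 5.73%, 5.89% and 5.02% in the wild type on cellobiose, against 29.2%, 29.2% and 30.4% in the wild type without carbon. The 697 raised genes made up 12.6%, 12.6% and 15.3% in the deletion strain on cellobiose, against 6.04%, 6.84% and 6.92% in the deletion strain without carbon. They made up 24.8%, 24.4% and 22.1% in the wild type on cellobiose, against 7.41%, 8.63% and 9.69% in the wild type without carbon. On cellobiose the strains did not overlap in either share, but the wild type values are those that chose the genes.

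Whether the response itself differed was tested by the interaction of strain and medium, which was called for 264 genes (3.33% of those tested). The response was more positive in the deletion strain for 168 (2.12%) and more negative for 96 (1.21%). The response of each strain is a term of the interaction that chose these genes, so the counts of calls among them are a description. Of the 168, 151 were called lower on cellobiose in the wild type, where 22% of all tested genes were. Of these 151, 115 were not called in the deletion strain, 35 were called lower there too and 1 was called higher. A further 12 of the 168 were called higher in the deletion strain and not called in the wild type. Among all tested genes, the deletion strain had 4.62% rises and 12.6% falls, whatever the wild type call. The medians over the 168 were -0.52 in the deletion strain and -2.56 in the wild type. Of the 96, 68 were called higher in the wild type, where 8.78% of all tested genes were. Of these 68, 64 were not called and 4 were called lower in the deletion strain. Another 24 of the 96 were called lower in the deletion strain (falls there: 12.6% of all tested genes) and not called in the wild type. The medians over the 96 were -0.67 in the deletion strain and 1.54 in the wild type.

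Most of these genes were called different between the strains on cellobiose, and 2 of them were without carbon. On cellobiose 162 of the 168 were called higher in the deletion strain than in the wild type, where 19.9% of all tested genes were, and 96 of the 96 were called lower, where 9.15% were. Without carbon, 166 of the 168 and 96 of the 96 were not called, and 2 of the 168 were called lower in the deletion strain, where 0.063% of all tested genes were. An unadjusted p under 0.05 without carbon was given by limma for 31 of the 168 and 4 of the 96, against 754 of all 7938 tested genes. A gene not called without carbon is thus not shown to be equal in the strains there. The interaction contains these differences, so their size on cellobiose is a description. The median difference between deletion and wild type over the 168 was 2.25 on cellobiose and 0.22 without carbon, and over the 96 it was -2.25 and -0.082.

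The number of genes called by interaction was not stable. It was 54, 134 and 145 without deletion replicates 1, 2 and 3 on cellobiose in turn, and 129, 107 and 147 without the same replicates in no carbon. Leaving out wild type replicates 1, 2 and 3 in turn gave 105, 115 and 184 on cellobiose, and 235, 74 and 856 in no carbon. Wild type replicate 3 in no carbon had a median of 18.9 TPM, against 36.9 and 33.1 TPM in replicates 1 and 2 of its group. Its 10 most abundant genes held 14.3% of its TPM, against 9.98% and 8.59% in those replicates. A lowest median in replicate 3 was seen in every group of the series. In the wild type on cellobiose the gap was small (25.66 TPM, against 25.67 TPM in replicate 1). The part of these differences in the counts was not tested. The replicate block gave 579 over 18 libraries and 1082 over the 12 libraries compared. Median-ratio scaling gave 885, of which 531 were more positive and 354 more negative in the deletion strain, and 252 of the 264 were among them in the same direction. Quantile normalization gave 491, with 228 more positive and 263 more negative, so the majority changed sides.

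**Figure D4:**
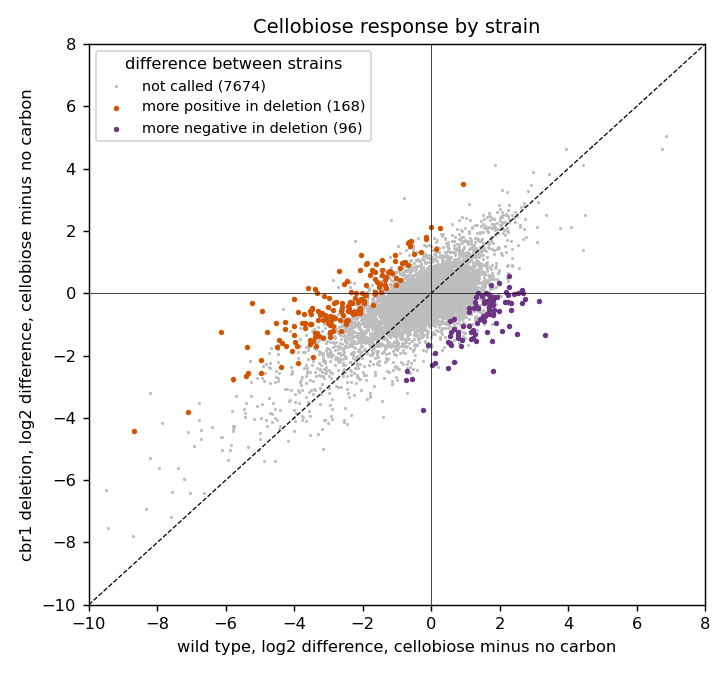
Log2(TPM + 1) difference between cellobiose and no carbon for each tested gene, in the cbr1 deletion strain (vertical axis) against the wild type (horizontal axis); the dashed line marks equal responses. Orange points are the 168 genes whose response was more positive in the deletion strain, mostly at negative wild type values, and purple points the 96 whose response was more negative, mostly at positive wild type values.

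The genes with the most positive interaction stayed on in the deletion strain and were nearly silent in the wild type on cellobiose. RTO4_13978 stood at 27.8, 11.7 and 44.4 TPM in the deletion strain on cellobiose, overlapping the 21.3, 30.7 and 43.2 TPM of the deletion strain without carbon. Wild type libraries held 0.41, 0.67 and 0.45 TPM on cellobiose, against 34.0, 55.8 and 89.5 TPM without carbon. The response was -0.30 ± 0.53 in the deletion strain (limma adjusted p = 0.763) and -5.23 ± 0.53 in the wild type (limma adjusted p = 3.19e-07), a difference of 4.92 ± 0.75 (SE; limma adjusted p = 0.0026).

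RTO4_12928 behaved similarly at a higher level. It stood at 118, 144 and 54.4 TPM in the deletion strain on cellobiose, against 262, 280 and 172 TPM in the deletion strain without carbon. Each cellobiose library was below each starved one, and the log2 difference of -1.25 ± 0.51 did not pass the test (SE; limma adjusted p = 0.0918). Wild type values of RTO4_12928 were 0.47, 1.47 and 1.23 TPM on cellobiose, against 201, 193 and 72.4 TPM without carbon. The difference between the responses was 4.90 ± 0.72 (SE; limma adjusted p = 0.0026). On succinate the strains overlapped for RTO4_12928, with 29.2, 101 and 39.7 TPM in the deletion strain, against 24.2, 32.8 and 87.3 TPM in the wild type.

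The genes with the most negative interaction were at their lowest on cellobiose in the deletion strain and were higher on cellobiose in the wild type. RTO4_13771 stood at 4.37, 5.53 and 4.62 TPM in the deletion strain on cellobiose, against 14.3, 14.8 and 12.0 TPM in the deletion strain without carbon. The media did not overlap, but the log2 difference of -1.33 ± 0.55 did not pass the test (SE; limma adjusted p = 0.102). That SE rests on the pooled spread of all 18 libraries, not on these deletion libraries alone. On succinate the deletion strain held 46.4, 113 and 268 TPM of RTO4_13771, above no carbon by 2.96 ± 0.55 on the log2 scale (SE; limma adjusted p = 3.81e-04). Wild type values of RTO4_13771 were 293, 240 and 81.9 TPM on cellobiose, against 13.3, 16.6 and 23.1 TPM without carbon. The difference between the responses to cellobiose was -4.64 ± 0.78 (SE; limma adjusted p = 0.00468).

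RTO4_12417 fell in the deletion strain to 0.31, 1.30 and 1.86 TPM on cellobiose, against 13.8, 24.4 and 3.23 TPM without carbon. Starved replicate 3 lay closest to the cellobiose libraries, and the log2 difference was -2.51 ± 0.74 (SE; limma adjusted p = 0.0183). On succinate the deletion strain held 7.18, 51.6 and 118 TPM of this gene, a range that overlaps that of the starved values (log2 difference 1.67 ± 0.74, SE; limma adjusted p = 0.0851). Wild type values of RTO4_12417 were 46.4, 32.6 and 15.8 TPM on cellobiose, against 5.68, 8.90 and 8.32 TPM without carbon, which did not pass the test (log2 difference 1.81 ± 0.74, SE; limma adjusted p = 0.0582). The difference between the responses was -4.32 ± 1.04 (SE; limma adjusted p = 0.0286). This call was lost without any of several single libraries, among them deletion replicate 1 on cellobiose (limma adjusted p = 0.0876), and over all alternatives its adjusted p by limma ran from 6.68e-12 to 0.501.

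**Figure D5:**
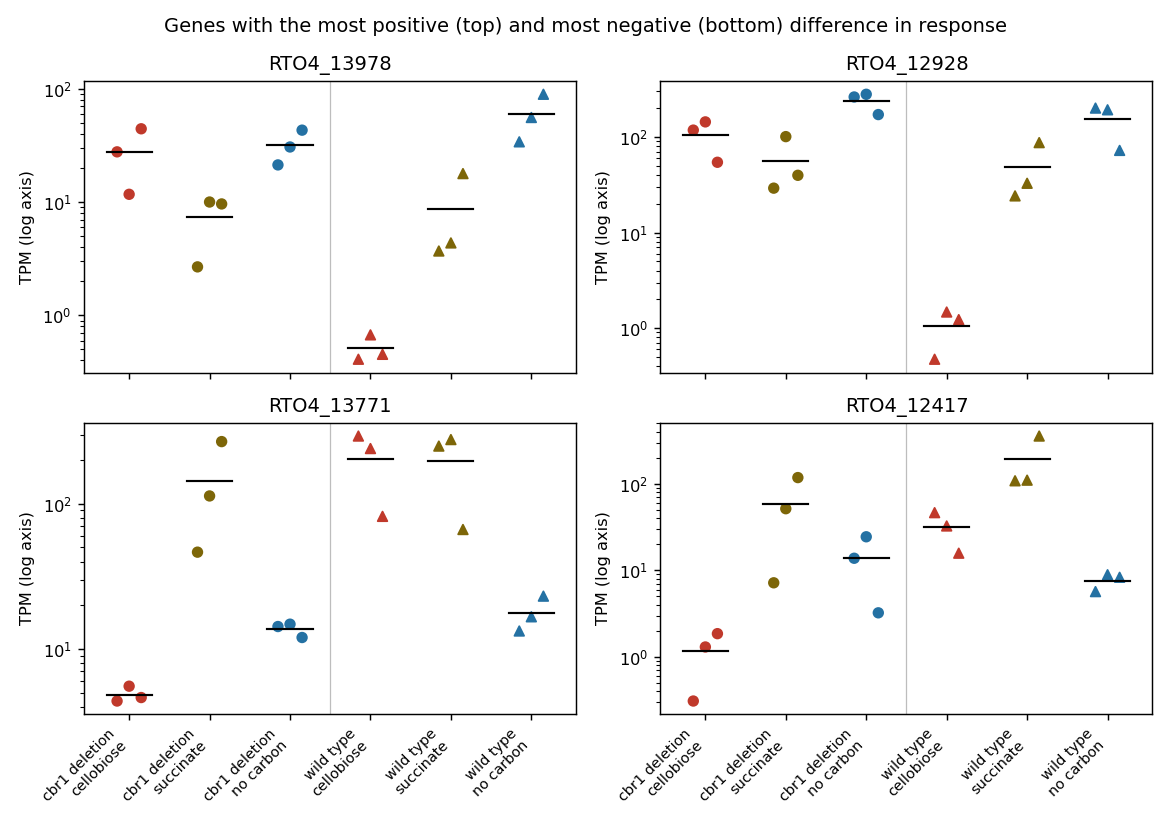
TPM of the 4 genes whose cellobiose response differed most between strains, in each of the 18 libraries (log axis; circles, deletion strain; triangles, wild type; red, cellobiose; ochre, succinate; blue, no carbon; lines, group means). RTO4_13978 and RTO4_12928 are near or under 1 TPM on cellobiose in the wild type alone, and the deletion libraries on cellobiose hold the lowest values of RTO4_13771 and RTO4_12417, at 0.31 to 5.53 TPM.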

How the data were processed

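The authors deposited TPM values for 8484 genes in 18 libraries, and the submitters' processing notes name Salmon 1.10.0. The genome build and annotation were not given in the sources used here. Read depth cannot be had from TPM. Libraries were poly-A enriched, per the labels' protocols. Values were taken as log2(TPM + 1), and 7938 genes averaging 1 TPM or more over all libraries were tested. A linear model holding a mean for each of the 6 groups came from limma 3.58.1 (R 4.3.3, eBayes with trend), with p-values adjusted by Benjamini-Hochberg over all tested genes within each comparison. The spread of a gene was pooled over the groups, although spread differed among them. The median SD of log2(TPM + 1) over genes ran from 0.20 in the deletion strain on cellobiose to 0.52 in the wild type without carbon. An exact permutation test on 1 gene, 3 libraries against 3, gives 0.1 at the least.

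Same-numbered deletion libraries on cellobiose and without carbon deviated together from their group means (r = 0.273, 0.11 and 0.374 over genes). Cellobiose replicate 2 was nearer to no-carbon replicate 1 (r = 0.235) than to replicate 2. Replicate 3 of each medium deviated against replicates 1 and 2 of the other, which follows in part because deviations cancel within a group. The numbers are thus neither shown to be pairs nor shown not to be. The main fit used no pairs, and a fit with the replicate number as a block was run as an alternative. In the wild type, same-numbered libraries did not all deviate together (r = -0.195, 0.204 and -0.105). Between the strains they did without carbon (r = 0.606, 0.236 and 0.686), though deletion replicate 2 was nearer to wild type replicate 1 (r = 0.259). On cellobiose they did not (r = -0.0573, -0.0641 and -0.0566).

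Genes named were the 2 with the largest rise and the 2 with the largest fall among called genes with a group mean of at least 10 TPM and no overlap between media, and the 2 at each end of the interaction with at least 10 TPM in a group. RTO4_11385 was added after its values were seen. Gene lists by function, planned for named genes, were not run. The comparison, the gene groups and the naming rule were chosen with earlier results of these data known.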

Additional observations from a re-analysis of the deposited data

Results flagged for a closer look

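The cellobiose response was flagged where it differed between the deletion strain and the wild type by a direct test of that difference, limma's interaction term. This held for 264 genes as a count. Among the genes named, the difference (deletion response minus wild type response, log2 scale) was 4.92 for RTO4_13978, 4.90 for RTO4_12928, -4.64 for RTO4_13771 and -4.32 for RTO4_12417. These 4 were chosen as the extremes of that test. Groups of 3 libraries are too small for the check of single samples far from the others.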

How the results depend on the processing

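The 1370 calls of the deletion strain ranged from 1068 to 1382 with 1 deletion library left out, with 289 to 329 higher and 768 to 1066 lower. They ranged from 1334 to 1463 without 1 wild type library on cellobiose or in no carbon, which enters only through the shared spread. They numbered 946 (222 higher and 724 lower) without replicate 3 in both media, an alternative chosen after seeing the data, as was the block over compared groups only. The replicate block changed none of the 4 named calls of the response and gave 1439 genes over 18 libraries and 1564 over 6. A treat test against a log2 difference of 1 gave 311 (78 higher and 233 lower), since it asks for more than a doubling beyond error. Quantile normalization gave 700 higher. RTO4_9137, RTO4_9994, RTO4_11679 and RTO4_13032 kept their calls under all 18 alternatives run on them.

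The interaction count (264, with 168 more positive and 96 more negative) moved most, and the cause was not tested. It was 158 (78 more positive) with a mean of at least 10 TPM, 885 (531 and 354) after median-ratio scaling, 491 (263 more negative) after quantile normalization and 2033 (1340 and 693) with array weights, whose estimation stopped before full convergence. The replicate block gave 579 (374 and 205) over 18 libraries and 1082 (609 and 473) over the 12 compared, against 656 (344 and 312) for those 12 with no block. The treat test gave 2 (2 and 0), and 1618 genes had an unadjusted p under 0.05. With 1 library left out the count ranged from 54 to 856 (35 to 736 more positive, 19 to 120 more negative), and without deletion replicate 3 in both media it was 81 (63 and 18). The treat test ended the calls of RTO4_13978 (limma adjusted p = 0.0515) and RTO4_13771 (0.145), and RTO4_12417 lost its call under 9 of 24 alternatives. The 972 wild type calls shared with the deletion strain ranged from 754 to 1071 with libraries left out. Read depth is unknown, so no limit on low values can be given.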
